A study of Mus musculus with 10 samples.

Results

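The 10 genes described here encode enzymes of mitochondrial fatty acid beta-oxidation: Cpt1b, Cpt2, Acadvl, Acadl, Acadm, Hadha, Hadhb, Acaa2, Etfa and Etfdh. They were taken by name, and the counts of all transcripts of each gene were summed. They are 10 of 20009 genes with at least 1 count, and 9 of the 5115 genes that passed the filter on low counts. Acadvl did not pass, with 8 counts in all. The data are RNA sequencing libraries of soleus and of tibialis anterior (TA) from mice; soleus, in the calf, is rich in slow fibers, and TA, at the front of the lower leg, is made mainly of fast ones. There were 3 male and 2 female soleus libraries, and 3 male and 2 female TA libraries. All mice were labelled wild type, and the labels used here give neither strain nor age.

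Beta-oxidation shortens fatty acids inside the mitochondrion. Cpt1b, the muscle form of carnitine palmitoyltransferase 1, loads long fatty acids onto carnitine at the outer membrane, and Cpt2 returns them to coenzyme A at the inner membrane. An acyl-CoA dehydrogenase then takes the first electrons, with Acadvl, Acadl and Acadm acting on very long, long and medium chains. Hadha and Hadhb form the trifunctional protein of the inner membrane, which carries out the later steps on long chains, and Acaa2 is a thiolase that splits off acetyl-CoA. Electrons from the dehydrogenases pass to the electron transfer flavoprotein, of which Etfa is the alpha subunit, and from there to ubiquinone through Etfdh. Slow, fatigue-resistant muscle is known for a high capacity to burn fatty acids.

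The muscles matched their labels. Levels are counts-per-million values (CPM) on TMM-scaled library sizes. Summed over 8 slow-fiber marker genes, the soleus libraries held 7406 to 9767 CPM and the TA libraries 4.73 to 19.0. Over 8 fast-fiber markers the soleus libraries held 12610 to 18970 CPM and the TA libraries 77170 to 106200. Total counts ran from 726414 to 961844 per library, of which the gene model Gm20594 took 22.1% to 28.4% in soleus and 17.2% to 20.9% in TA. Soleus female 2 stood apart from the other libraries: transcripts annotated as retained introns took 3.54% of its counts outside Gm20594 and Cep295, against 1.09% to 1.48% elsewhere, and it listed 22862 transcripts against 14993 to 16575. Its summed level of the 10 genes was 1663 CPM, against 2634 to 2817 CPM in the other soleus libraries. TA female 2, read as the same mouse, was likewise the lowest TA library, at 1057 CPM against 1270 to 1588 CPM. Its retained-intron share was 1.23%. Both libraries of this mouse also had the lowest summed levels of citric acid cycle and of respiratory chain genes in their muscle. The number of genes called and the range of their fold changes are therefore given with and without soleus female 2. For single genes this was done for some only.

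Before the levels, the sequences upstream of 4 of the genes are shown, since most of the genes were higher in soleus together and Hadha and Hadhb lie head to head. RefSeq promoter windows on GRCm38.p6, from 250 bases before to 50 after the annotated start, matched 8 of the 10 genes, all but Cpt1b and Acaa2. Only the part upstream of the GENCODE M21 gene is printed, 5′ to 3′ on the strand of the named gene, with GC boxes (GGGCGG on either strand) in capitals. The first stretch, chr5:30155163-30155247 on the plus strand, is the whole space of 85 bases between Hadha, which runs to the left on the minus strand, and Hadhb, which runs to the right. The RefSeq windows of those neighbours share 228 bases. The Acadm stretch is chr3:153944633-153944893, the Acadl stretch chr1:66863278-66863559 and the Cpt2 stretch chr4:107923611-107923839, all on the minus strand. Acadm and Acadl stand for genes with a clear difference between muscles, and Cpt2 for a gene that did not pass the test.
Hadha to Hadhb: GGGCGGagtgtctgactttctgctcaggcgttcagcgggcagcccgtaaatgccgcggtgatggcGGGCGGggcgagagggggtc
Acadm: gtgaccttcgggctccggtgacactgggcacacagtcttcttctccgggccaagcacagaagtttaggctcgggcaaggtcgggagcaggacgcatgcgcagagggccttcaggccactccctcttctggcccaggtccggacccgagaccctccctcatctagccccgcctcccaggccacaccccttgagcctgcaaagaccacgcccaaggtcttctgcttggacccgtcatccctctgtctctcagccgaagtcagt
Acadl: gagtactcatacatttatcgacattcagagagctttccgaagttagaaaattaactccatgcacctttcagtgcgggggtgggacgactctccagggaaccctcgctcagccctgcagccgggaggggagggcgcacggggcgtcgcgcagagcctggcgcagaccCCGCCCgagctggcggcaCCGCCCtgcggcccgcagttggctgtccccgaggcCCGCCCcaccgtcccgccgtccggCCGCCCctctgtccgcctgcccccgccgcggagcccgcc
Cpt2: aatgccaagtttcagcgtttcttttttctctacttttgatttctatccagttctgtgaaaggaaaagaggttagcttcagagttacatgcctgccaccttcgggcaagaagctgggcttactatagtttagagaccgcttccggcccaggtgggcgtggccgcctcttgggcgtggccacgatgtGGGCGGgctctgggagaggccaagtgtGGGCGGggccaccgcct

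These stretches are GC-rich, with 69.4% G and C between Hadha and Hadhb, 69.9% at Acadl, 63.6% at Acadm and 55.5% at Cpt2. The Acadl stretch held 4 GC boxes, the Cpt2 stretch and the Hadha to Hadhb stretch 2 each, and the Acadm stretch 0. Over the full windows, GGGCGG was found in 5 of 8 windows of these genes and in 35.7% of all 32851 promoter windows, with the shared bases of Hadha and Hadhb counted in both. The nuclear receptor motif AGGTCA, searched like the others on both strands, was found in 2 of 8 windows, Acadm and Acadvl, and in 16.3% of all windows. The longer motif TNAAGGTCA and the direct repeat of AGGTCA with 1 base between, which both contain AGGTCA, were found in 0 of 8 windows, and in 1.28% and 0.0396% of all windows. The other motifs searched were CCAAT, in 2 of 8 windows and 37.4% of all, and CANNTG, in 4 of 8 and 72.3%. TGACCTTTG was found in 0 of 8 and 0.478%. A match is a run of letters and not a site shown to be bound.

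Most of the beta-oxidation enzymes were higher in soleus than in TA. Of the 9 genes tested, 6 rose in soleus and 0 fell at a Benjamini-Hochberg adjusted p under 0.05 by the edgeR quasi-likelihood test with sex as a covariate. These were Acadm, Acadl, Acaa2, Etfa, Hadha and Cpt1b. Over all 5115 tested genes 11.0% were higher in soleus by that rule. Log2 fold changes of soleus over TA in the 9 genes ran from 0.21 to 1.446 with a median of 0.94, where the median of all tested genes was 0.01. In 8 of the 9 genes the CPM of the soleus library was above that of the TA library in 5 of 5 mice. The share of all tested genes with this pattern is not given here. In female 2 Cpt1b had 26 soleus and 27 TA counts, and in male 2 Etfdh had 8 and 9. The order in those 2 cases thus rests on library scaling. Without soleus female 2, 6 of 9 were again called, the range was 0.32 to 1.26 and the median 1.06, and 9.98% of all genes tested in that fit were higher in soleus. TA female 2, the lowest TA library in summed level of the 10 genes, stayed in that fit. Soleus female 2 was noted partly for its own low sum, so the higher median without it is no added support. In whole muscle, more fibers or cells that express a gene and more RNA per cell cannot be told apart.

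**Figure D1:**
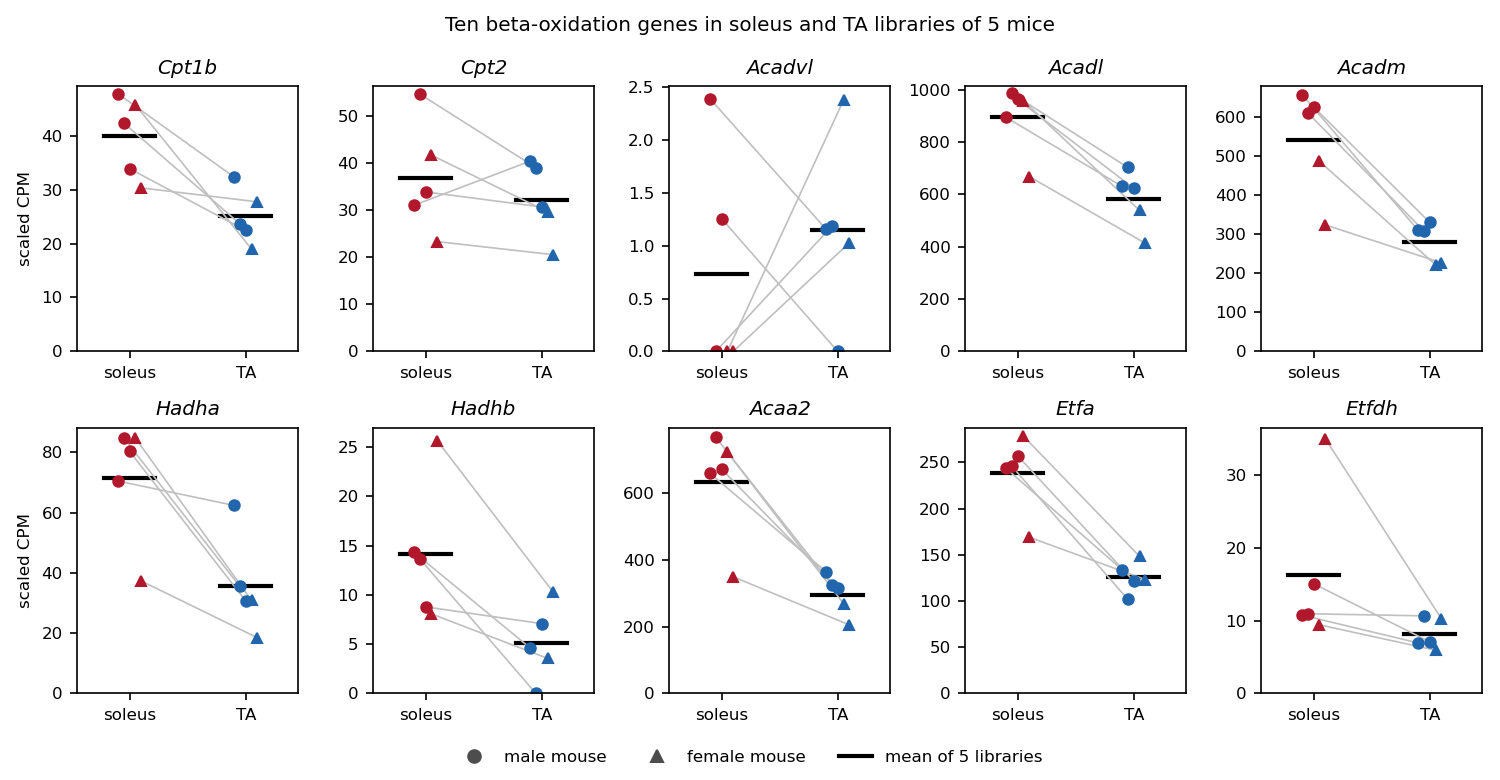
Scaled CPM (y axis, linear from 0) of each of the 10 genes in soleus (left, red) and TA (right, blue); circles are male and triangles female mice, grey lines join libraries with the same sex and replicate number, and black bars are means of 5 libraries. In Acadm, Acadl, Acaa2, Etfa, Hadha and Cpt1b every line falls from soleus to TA, and in each of these 6 the lowest soleus point is soleus female 2.

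Gene positions are those of GENCODE M21 on GRCm38. Acadm, the medium-chain acyl-CoA dehydrogenase (chromosome 3, 153922357 to 153944632, minus strand), had 658, 611, 626, 487 and 324 CPM in soleus males 1 to 3 and females 1 and 2, against 311, 309, 331, 222 and 227 CPM in the TA libraries in the same order. The soleus and TA values overlapped only through soleus female 2, which lay between the TA males. Acadm averaged 541 ± 138 CPM in soleus and 280 ± 51.2 CPM in TA (SD, n = 5 each), a log2 fold change of 0.94 (SE 0.14, edgeR adjusted p = 0.000327). Without soleus female 2 the value was 1.06 (SE 0.13, edgeR adjusted p = 3.522e-05).

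Acadl, the long-chain acyl-CoA dehydrogenase (chromosome 1, 66830839 to 66863277, minus strand), had 895, 986, 963, 958 and 668 CPM in soleus, in the same order of mice, against 631, 703, 623, 539 and 413 CPM in TA. Again soleus female 2 alone fell within the TA range, below TA male 2. The means were 894 ± 131 CPM in soleus and 582 ± 111 CPM in TA (SD, n = 5 each), and the log2 fold change was 0.63 (SE 0.14, edgeR adjusted p = 0.00746). Acadvl, the very long-chain acyl-CoA dehydrogenase (chromosome 11, 70010183 to 70015411, minus strand), could not be compared. Its 8 counts, 3 in soleus and 5 in TA, allow no fold change.

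Whether Acadm and Acadl differed by the same factor was tested on the ratio of Acadm to Acadl within each library, which does not depend on library scaling. The log2 ratio averaged -0.75 ± 0.25 in soleus, against -1.05 ± 0.18 in TA (SD, n = 5 each), a difference of 0.30 that did not pass (exact 2-sided permutation p = 0.0714, adjusted p = 0.194 over 7 pairs of genes). The smallest p that 5 against 5 libraries allow in this exact permutation test is 0.00794, or 0.0556 after adjustment where 1 pair alone reaches it, so a single pair could not pass. Ratios to Acadvl rested on its 8 counts and did not pass either (exact permutation adjusted p = 0.194 for Acadm and for Acadl).

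Entry of fatty acids into the mitochondrion gave a less even picture. Cpt1b (chromosome 15, 89416405 to 89425863, minus strand) had 47.8, 42.4, 33.9, 45.7 and 30.3 CPM in soleus against 32.3, 23.7, 22.4, 19.0 and 27.7 CPM in TA. The groups overlapped by 1 library on each side, soleus female 2 and TA male 1. Cpt1b averaged 40.0 ± 7.58 CPM in soleus and 25.03 ± 5.14 CPM in TA (SD, n = 5 each), a log2 fold change of 0.67 (SE 0.21, edgeR adjusted p = 0.0381). This call was lost in 10 of 20 alternative analyses, DESeq2 and the omission of any of 6 single libraries among them, with log2 fold changes of 0.51 to 0.79 over all 20 (adjusted p 0.0185 to 0.192). These omissions gave adjusted p = 0.0939 without soleus male replicate 1, 0.0716 without soleus male replicate 2 and 0.135 without soleus female replicate 1. They gave 0.0844 without TA male replicate 2, 0.0907 without TA male replicate 3 and 0.136 without TA female replicate 1.

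Cpt2 (chromosome 4, 107903981 to 107923610, minus strand) was the only tested gene of the 10 that was not higher in soleus in every mouse. It had 31.1, 54.7, 33.9, 41.7 and 23.3 CPM in soleus, against 40.4, 39.0, 30.7, 29.7 and 20.6 CPM in TA. The ranges lay largely over each other, and TA male 1 was above soleus male 1. The log2 fold change was 0.21 (SE 0.24), with a 95% interval of -0.30 to 0.72, and it did not pass (edgeR adjusted p = 0.595). At this depth the interval includes both no change and a rise as large as that of Cpt1b. The log2 ratio of Cpt1b to Cpt2 within a library averaged 0.15 ± 0.37 in soleus, against -0.33 ± 0.45 in TA (SD, n = 5 each), which did not pass (exact permutation adjusted p = 0.194).

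The later steps on the acyl chain were higher in soleus for Hadha and Acaa2. Hadha, the trifunctional subunit that holds the hydratase and dehydrogenase activities (chromosome 5, 30118304 to 30155162, minus strand), had 70.5, 84.8, 80.3, 84.8 and 37.3 CPM in soleus against 62.4, 35.5, 30.7, 30.9 and 18.5 CPM in TA. Soleus female 2 was again the low library, and TA male 1 was the high library of TA. The means were 71.5 ± 19.99 CPM in soleus and 35.6 ± 16.3 CPM in TA (SD, n = 5 each), a log2 fold change of 1.03 (SE 0.27, edgeR adjusted p = 0.0153).

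Acaa2, the thiolase on chromosome 18, had 661, 768, 673, 724 and 350 CPM in soleus against 365, 327, 316, 270 and 206 CPM in TA. Only soleus female 2 lay within the TA range, below TA male 1. Its means were 635 ± 165 CPM in soleus and 297 ± 61.2 CPM in TA (SD, n = 5 each), a log2 fold change of 1.11 (SE 0.19, edgeR adjusted p = 0.00101), and 1.26 (SE 0.16) without soleus female 2.

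Hadhb, the thiolase subunit of the trifunctional protein (chromosome 5, 30155248 to 30184593, plus strand), was read far less often than its partner. It had 12, 10, 7, 6 and 22 counts in soleus and 4, 0, 6, 3 and 10 counts in TA. Here soleus female 2 was the highest soleus library, where it was the lowest for Hadha. The log2 fold change was 1.446 (SE 0.54) with a 95% interval of 0.28 to 2.61, and it did not pass (edgeR adjusted p = 0.0747). It was 1.16 (SE 0.57, edgeR adjusted p = 0.177) without soleus female 2. The within-library log2 ratio of Hadha to Hadhb averaged 2.35 ± 1.098 in soleus, against 3.06 ± 1.91 in TA (SD, n = 5 each), a difference that did not pass (exact permutation adjusted p = 0.593).

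In electron transfer, Etfa was higher in soleus and Etfdh did not pass. Etfa (chromosome 9, 55454508 to 55512243, minus strand) had 244, 246, 257, 279 and 169 CPM in soleus against 134, 102, 122, 148 and 123 CPM in TA, and was the only one of the 9 tested genes whose muscles did not overlap. Over all tested genes 7.27% did not overlap with soleus higher. The means were 239 ± 41.4 CPM in soleus and 126 ± 17.2 CPM in TA (SD, n = 5 each), a log2 fold change of 0.92 (SE 0.17, edgeR adjusted p = 0.00165). Without soleus female 2, 6 of the 9 genes did not overlap, the 6 called ones, against 9.83% of all tested genes. That library was the lowest soleus library in these 6 genes, so leaving it out could only widen their gap. The beta subunit Etfb, which is not among the 10 genes, had 16 counts in all, and its ratio to Etfa did not pass (exact permutation adjusted p = 0.467).

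Etfdh, which hands the electrons to ubiquinone (chromosome 3, 79603788 to 79629500, minus strand), had 9, 8, 12, 7 and 30 counts in soleus and 6, 9, 6, 5 and 10 counts in TA. The 30 counts of soleus female 2 stood far above the other soleus libraries. The log2 fold change of 0.95 (SE 0.40) did not pass (edgeR adjusted p = 0.110), and it was 0.49 (SE 0.35) without soleus female 2. Its ratio to Etfa did not pass (exact permutation adjusted p = 0.857).

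**Figure D2:**
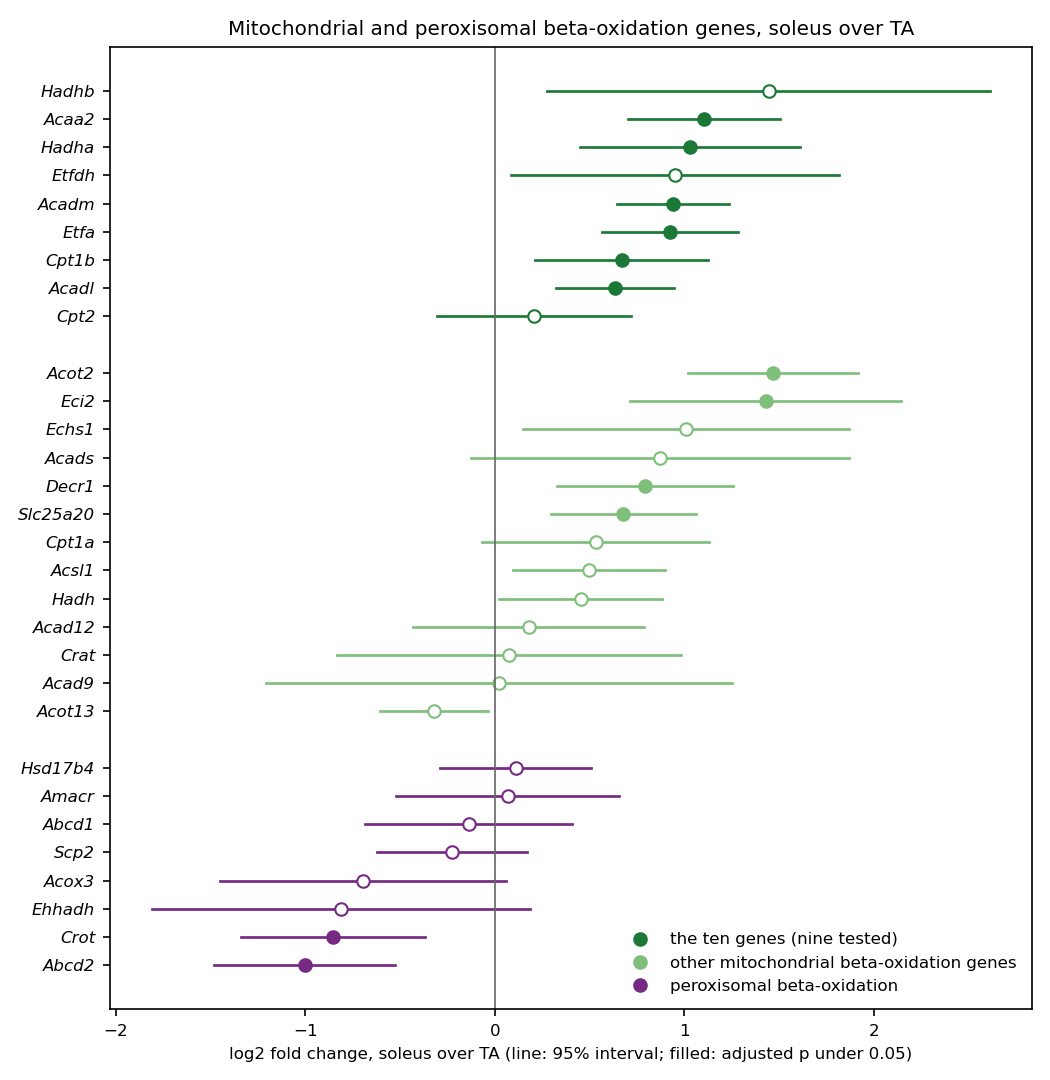
Log2 fold change of soleus over TA (x axis) for the 9 tested genes, the other tested mitochondrial beta-oxidation genes and the tested peroxisomal genes; lines are 95% intervals of the edgeR fit and filled points passed at an adjusted p under 0.05. All 9 points of the first group lie right of 0, from Cpt2 at 0.21 to Hadhb at 1.446, while Abcd2 and Crot of the peroxisomal group lie left of it.

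The counts of each gene lay on few of its transcripts. The 10 genes have 60 annotated transcripts, of which 34 had a count, and in most genes a single protein-coding transcript held nearly all of them. Acadm-201 held 99.5% of the Acadm counts in soleus and 99.8% in TA, Acadl-201 99.97% in soleus and every count in TA, and Acaa2-201 and Cpt2-201 every count. Etfa-201 held 99.0% in soleus and 99.1% in TA, and Hadha-205 95.7% in soleus and 92.9% in TA. Tested one by one, 8 transcripts of the 10 genes passed the filter and 6 rose in soleus, 1 from each of the 6 called genes, where 12.6% of 5089 tested transcripts rose. Cpt1b-201 had a log2 fold change of 0.68 (SE 0.21, edgeR adjusted p = 0.0336).

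Etfdh, Hadhb and Acadvl were different. Of the 102 Etfdh counts, 98 lay on Etfdh-205, annotated as a retained intron, with 62 in soleus and 36 in TA, and 1 count lay on a protein-coding transcript. The Etfdh values above thus rest on counts assigned to a retained-intron transcript, and how reads shared with coding transcripts were assigned is not known here. Hadhb-203, protein coding, had 30 counts in soleus and 15 in TA, and the retained-intron Hadhb-206 had 19 in soleus, 14 of them in soleus female 2, and 5 in TA. The part of the high retained-intron share of that library in the Hadhb and Etfdh values was not tested. Acadvl had 2 counts on a protein-coding transcript and 6 on retained introns.

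The number of 31-base words found in no other annotated transcript also differed between genes. Acadl-201 had 1355 such words, Acaa2-201 had 1031, Acadm-201 had 832, Cpt2-201 had 763 and Etfa-201 had 530. The main coding transcripts of Acadvl had 29 and 6, those of Etfdh 15 and 29, and Hadhb-203 had 27, while the retained-intron Etfdh-205 had 2811. Cpt1b-201 had 180. CPM is not per length and shared reads bear on it too, so the order of CPM among the 10 genes is not an order of expression. For Acadvl, Etfdh and Hadhb, a difference between muscles in coding transcripts was not tested.

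**Figure D3:**
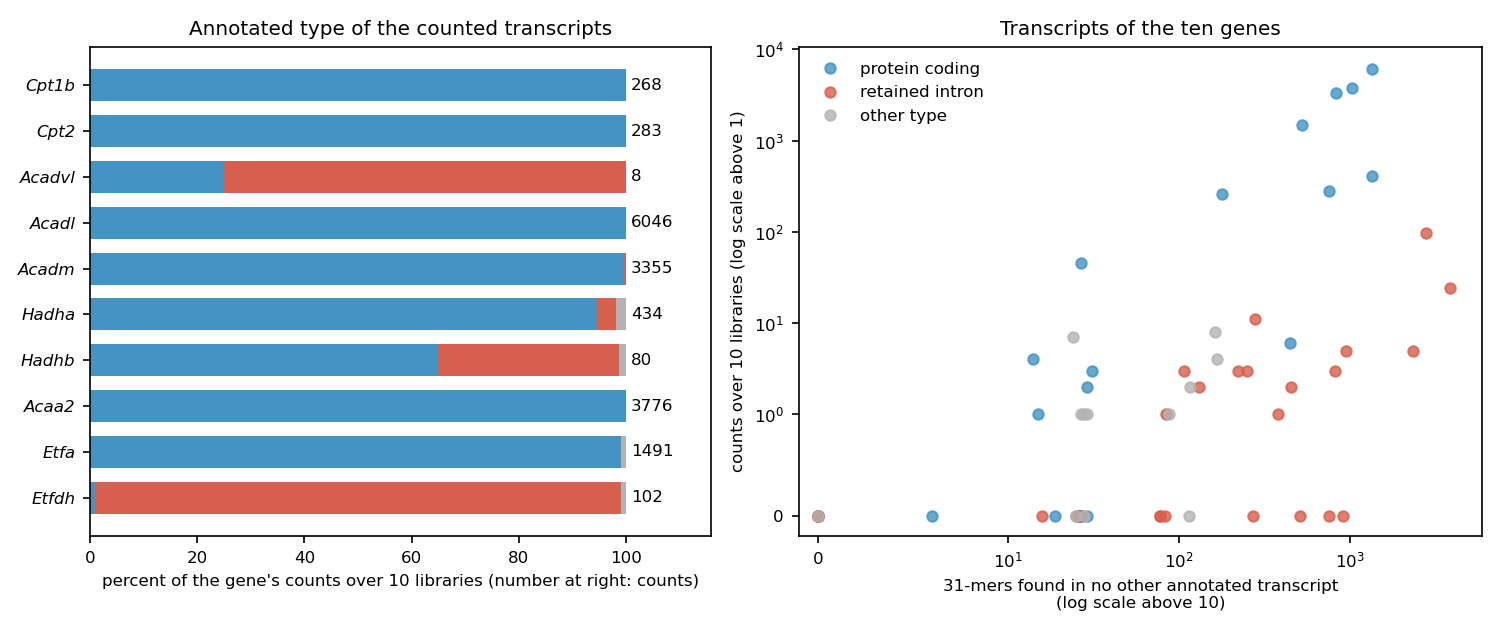
Left, percent of each gene's counts over 10 libraries (x axis) on protein-coding (blue), retained-intron (red) and other (grey) transcripts, with the counts at right; right, counts per transcript over 10 libraries (y axis, log scale above 1) against the number of 31-mers of that transcript found in no other annotated transcript (x axis, log scale above 10). Etfdh, with 102 counts, is nearly all red, and protein-coding transcripts with few own 31-mers have few counts.

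The 10 genes were set beside neighbouring mitochondrial pathways. Summed over the 10 genes, soleus averaged 2489 ± 467 CPM and TA 1391 ± 224 CPM (SD, n = 5 each), and the ranges, 1663 to 2817 in soleus and 1057 to 1588 in TA, did not overlap. The ratio of soleus to TA within a mouse was 1.66, 1.82 and 1.81 in males 1 to 3 and 2.08 and 1.57 in females 1 and 2. For 17 genes of the citric acid cycle, which burns the acetyl-CoA made by beta-oxidation, the same ratio was 0.859 to 0.977. It was 0.940 to 1.11 for nuclear subunits of the respiratory chain. Of 74 such subunits listed, 73 were in the annotation and 70 had a count. Atp5a1, Atp5pb, Ndufs3 and Uqcrc1 added nothing to this sum. Among 14 tested citric acid cycle genes, edgeR called 0 with soleus higher and 2 with soleus lower, where 11.1% of all tested genes were lower in soleus, with a median log2 fold change of -0.17. Those were Suclg1 and Sucla2, subunits of succinyl-CoA ligase, at -0.63 (SE 0.13) and -0.65 (SE 0.18), and 1 in place of 2 was called without soleus male 3, TA male 1 or TA male 3. Among 48 tested respiratory chain subunits 4 rose in soleus and 1 fell, with a median of 0.05, where 11.0% of all tested genes rose and 11.1% fell. Of those subunits 2 rose without any 1 of soleus males 1 to 3, soleus female 1, TA male 3 or TA female 2, and 0 to 4 fell over the alternatives, 4 of them without soleus female 1.

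Set against those pathways within each library, the 10 genes had a higher ratio to each pathway's sum in every soleus library than in any TA library. Their summed counts equalled 44.8%, 46.2%, 41.7%, 47.2% and 38.9% of the citric acid cycle sum in soleus males 1 to 3 and females 1 and 2, against 21.2% to 23.2% over the 5 TA libraries. Soleus female 2 was the lowest soleus library here too, and it lay above the highest TA library. As a percent of the respiratory chain sum, the 10 genes ranged over 19.1% to 26.8% in soleus libraries, against 13.3% to 14.3% in TA libraries. These ratios do not depend on library scaling, but Acadl, Acaa2 and Acadm make up most of the sum. Taken singly against the citric acid cycle sum, Acadm, Acadl, Acaa2 and Etfa did not overlap between muscles, 4 of 9 genes, as did 7.14% of all tested genes. Against the respiratory chain sum the count was again 4 of 9 genes, and it was 5.81% of all tested genes. With library sizes set to the respiratory chain sum, 5 of 9 genes were called higher in soleus, where 9.52% of all tested genes were, and 0 higher in TA, where 11.2% were, Cpt1b being the one lost (edgeR adjusted p = 0.0645).

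**Figure D4:**
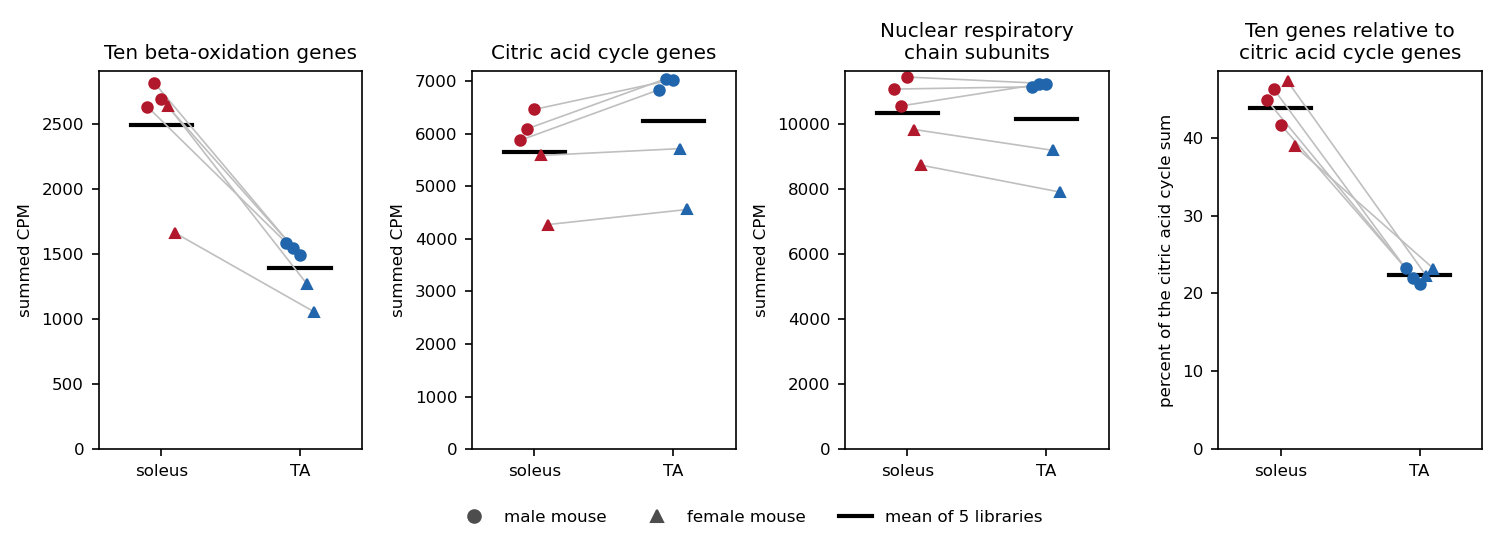
Summed scaled CPM (y axes, linear from 0) of the 10 beta-oxidation genes, of citric acid cycle genes and of nuclear respiratory chain subunits, and the 10 genes as a percent of the citric acid cycle sum, in soleus (left, red) and TA (right, blue); circles are males, triangles females, grey lines join the same mouse and black bars are means of 5 libraries. The percent panel runs from 38.9% to 47.2% in soleus and from 21.2% to 23.2% in TA.

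Some other genes of mitochondrial beta-oxidation were also higher in soleus. Of 19 listed genes outside the 10, 13 were tested, 4 rose in soleus and 0 fell, with a median log2 fold change of 0.53. Over all tested genes 11.0% rose and 11.1% fell. Acot2, a mitochondrial acyl-CoA thioesterase, differed by 1.47 (SE 0.21), with 42.0 to 75.3 CPM in soleus and 15.4 to 28.9 CPM in TA. Eci2, an enoyl-CoA isomerase for unsaturated chains, differed by 1.43 (SE 0.33), with 22.6 to 153 CPM in soleus and 10.4 to 31.9 CPM in TA. The 153 CPM of Eci2 was soleus female 2, and the fold change of Eci2 without that library is not given here. Decr1, the dienoyl-CoA reductase of the same branch, differed by 0.79 (SE 0.21). Slc25a20, which carries acylcarnitine across the inner membrane, differed by 0.68 (SE 0.18). Among those that did not pass, Hadh, the dehydrogenase for shorter chains, was at 0.45 (SE 0.20), Echs1, the short-chain hydratase, at 1.01 (SE 0.40), and Acsl1, which activates fatty acids, at 0.50 (SE 0.18). The highest soleus value of Echs1, 35.0 CPM, was also soleus female 2. Acot13, a thioesterase, was on the other side of 0, at -0.32 (SE 0.13), and did not pass either (edgeR adjusted p = 0.103). Without soleus female 2, 6 of the 13 tested genes of this list rose in soleus, where 9.98% of all genes tested in that fit did. Over the alternatives 3 to 6 of the list rose.

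Peroxisomal beta-oxidation is a separate pathway that starts on very long chains. Of 15 listed genes 8 were tested, 0 rose in soleus and 2 fell, where 11.0% of all tested genes rose and 11.1% fell. The median log2 fold change was -0.46, or -0.28 without soleus female 2, when again 2 fell. Abcd2, a transporter of very long-chain acyl-CoA, had 35.0 to 86.1 CPM in soleus and 81.2 to 222 CPM in TA, a log2 fold change of -1.003 (SE 0.22, edgeR adjusted p = 0.00611). Crot, carnitine octanoyltransferase, which prepares shortened chains for export, differed by -0.85 (SE 0.22, edgeR adjusted p = 0.0162). The difference between the mitochondrial and the peroxisomal list was not tested.

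Genes that regulate or gate the pathway differed singly. Of 7 tested regulators 1 rose in soleus and 2 fell, with a median of 0.16, where 11.0% of all tested genes rose and 11.1% fell. Perm1, a muscle regulator of oxidative genes, was at 0.78 (SE 0.21, edgeR adjusted p = 0.0191). Nrip1, a corepressor of nuclear receptors, was at -0.61 (SE 0.18, edgeR adjusted p = 0.0329), and Rxra, a retinoid X receptor, at -0.58 (SE 0.18, edgeR adjusted p = 0.0358). These calls were not stable: on all 10 libraries 0 fell by DESeq2 or with library sizes set to the citric acid cycle sum. Again 0 fell without any 1 of soleus male 1, TA male 1, soleus male 3, TA male 3 or soleus female 2. Without soleus male 3 or without TA male 3, 0 rose. Esrra, the estrogen-related receptor alpha, did not pass at 0.50 (SE 0.18). Mlycd, which breaks down malonyl-CoA, the inhibitor of carnitine palmitoyltransferase 1, was at 1.08 (SE 0.38), and Acacb, which makes it in muscle, at 0.43 (SE 0.29); neither passed (edgeR adjusted p = 0.0577 and 0.331). Without soleus female 2, Mlycd passed, at 1.33 (SE 0.35, edgeR adjusted p = 0.0153). It also passed with protein-coding transcripts only (edgeR adjusted p = 0.0488) and with library sizes set to the citric acid cycle sum (edgeR adjusted p = 0.0427). Over all alternatives its adjusted p ran up to 0.165. Of 3 tested genes of propionyl-CoA handling, the route for odd-chain ends, 0 passed, and Mcee had the smallest p, at 0.64 (SE 0.30).

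Genes most like the 10 in pattern were found by the root mean square distance of centred log2 CPM over 10 libraries from the median profile of the 9 tested genes, among 1412 candidates outside the lists with at least 50 CPM. Acat1, a mitochondrial thiolase of ketone body and isoleucine metabolism, was at a distance of 0.17 log2 units, with means of 567 CPM in soleus and 325 CPM in TA. Tmem63b, an ion channel gene, was at 0.16, Extl1, a glycosyltransferase gene, at 0.17, and Usp13, a deubiquitinase gene, at 0.20. Among the 10 genes themselves the distance ran from 0.16 for Acadm to 0.82 for Hadhb.

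No gene of the 10 passed a test of whether the difference between muscles depended on sex. The difference of soleus minus TA in females less that in males ran from -0.35 to 0.87 on the log2 scale, and edgeR called 0 of 9 genes, with 0 of 9 at an unadjusted p under 0.05 and 0 of 9 by DESeq2. Over all tested genes edgeR called 0% for this interaction, and 6.86% had an unadjusted p under 0.05. DESeq2 gave an adjusted p to 2734 genes and called 0.219% of these. A gene without one was counted as not called. With 2 females, the intervals were wide, from -0.75 to 0.47 for Acadm and from -0.73 to 0.96 for Acaa2. Within soleus, female minus male was below 0 in 7 of 9 genes and edgeR called 0, with 1 gene at an unadjusted p under 0.05, against 0.547% called and 16.5% at that unadjusted p of all genes. Within TA it was below 0 in 7 of 9 genes and edgeR called 0, with 2 genes at an unadjusted p under 0.05, against 0.684% called and 11.7% at that unadjusted p of all genes. The median of female minus male over the 9 genes was -0.22 in soleus and -0.45 in TA, against 0.015 and 0.023 over all tested genes. Soleus female 2, the lowest soleus library in the 6 genes called between muscles, was 1 of the 2 soleus females. The soleus contrast without soleus female 2 is not given here. Without soleus female 1, when soleus female 2 alone stood for females, 3 of 9 genes were called within soleus, Acadm, Acaa2 and Etfdh, where 16.2% of all genes tested in that fit were called. DESeq2 called 0 of 9 genes in each muscle, against 2.41% of all genes in soleus and 1.54% in TA. Acadm had the smallest adjusted p of the 9 in soleus, at -0.64 (SE 0.20, edgeR adjusted p = 0.143), and was at -0.50 (SE 0.20, edgeR adjusted p = 0.356) in TA.

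Markers of other cells were read beside these genes. The counts of markers called stand against 11.0% of all tested genes higher in soleus and 11.1% lower. Summed over 9 adipocyte markers, the soleus libraries had 170.9 to 251.5 CPM and the TA libraries 94.5 to 225 CPM, with 3 markers tested and 2 of them, Cidea and Adipoq, higher in soleus. Ucp1, the defining gene of brown fat, had no count, and Elovl3 had 0 counts in soleus and 1 in TA. The brown fat list also holds Cpt1b, and its sum was 64.2 to 94.2 CPM in soleus and 30.8 to 46.2 CPM in TA. Of 6 heart-only markers, Myl7, Nppb and Tnni3 had no count, and the sum was 2.69 to 16.3 CPM in soleus and 1.16 to 5.92 CPM in TA. The 16.3 CPM was soleus female 2, and the other soleus libraries had 2.69 to 6.83 CPM. Summed over 7 endothelial markers, soleus had 199 to 298 CPM and TA 293 to 864 CPM, ranges that overlapped, and 2 of 3 tested, Kdr and Cdh5, fell in soleus. Tenocyte markers had 283 to 1043 CPM in soleus and 157 to 699 CPM in TA, and 1 of 5 tested rose in soleus. Without soleus female 2, the low soleus library, 4 of 5 rose, where 9.98% of all genes tested in that fit did. Smooth muscle and pericyte markers had 428 to 676 CPM in soleus and 616 to 1214 CPM in TA, and 2 of 4 tested fell in soleus. The part of these cells in the difference of the 10 genes was not tested.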

How the data were processed

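The authors deposited raw counts by Ensembl transcript identifier for each of 10 libraries, listing only transcripts with a count. Per the labels, 10 ng of total RNA entered a stranded SMART-Seq preparation. The submitters' processing notes name bcl2fastq, Trimmomatic 0.32, FastQC and build GRCm38.p4; the aligner and counter are not given in the sources used here. Of 40414 listed transcripts, 40359 matched GENCODE M21 (GRCm38) by identifier without version, and the other 55 were left out. Counts were summed to genes, filtered with filterByExpr by the 4 groups of muscle and sex, scaled by TMM and tested in R 4.3.3 with edgeR 4.0.16 (quasi-likelihood, sex as covariate), with Benjamini-Hochberg adjustment over 5115 genes. The SE is the size of the log2 fold change divided by the square root of F. The edgeR script was tested on simulated data. Interaction and sex contrasts used a mean for each group. Gene pairs were compared by exact 2-sided permutation, over all splits of 5 against 5 libraries, of log2 ratios of counts plus 0.5.

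Soleus and TA libraries with the same sex and number were read as 1 mouse, since their deposited files share an animal code. Their deviations from group means correlated with r of 0.184 to 0.239 in males, and 0.279 in females, where 2 mice leave a single difference. The labels give no batch. P-values measure the spread between these libraries. Members and lists were chosen with earlier results of these data known. Named genes were all 10 genes, up to 4 of each other list with the smallest p, the defining genes of some steps that did not pass, and the 5 most alike in pattern, of which 1 is not reported here. Alternatives used DESeq2 1.42.0, other scalings and filters, a mouse block, protein-coding transcripts only, omission of Gm20594 and Cep295, and omission of each library. Motif and 31-mer searches and plots used Python 3.11.15 and matplotlib 3.10.9.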

Additional observations from a re-analysis of the deposited data

Results flagged for a closer look

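A library lay far from the others of its muscle in 4 of 18 checks, made on log2 CPM of the 9 tested genes over the 5 libraries of each muscle. All 4 were soleus female 2 as the lowest soleus library. It had 668 CPM of Acadl, 37.3 CPM of Hadha, 350 CPM of Acaa2 and 169 CPM of Etfa. Chance alone flags about 1 in 20 such groups, and the 4 values come from 1 library and are not independent. TA female 2, read as the same mouse, was the lowest TA library for Acadl, Hadha and Acaa2, though not for Etfa. The retained-intron share of 3.54% and the 22862 listed transcripts of soleus female 2 stand beside these values, and their part in them was not tested. The 4 genes were called with and without it.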

How the results depend on the processing

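Over the alternatives, the count of beta-oxidation genes higher in soleus was 5 to 7 of those tested and 0 were higher in TA. Of all genes, 435 of 5042 tested were higher in soleus without soleus male replicate 2, and 766 of 20009 with no filter. The count of 7 arose without soleus female replicate 1, when 729 of 6194 were. In the main fit 11.0% of all tested genes were higher in soleus. Acadm, Acadl, Acaa2, Etfa and Hadha passed in all 20 alternatives, with log2 fold changes of 0.80 to 1.06, 0.46 to 0.76, 0.85 to 1.26, 0.78 to 1.08 and 0.74 to 1.27. Cpt1b lost its call in 10, among them no filter (adjusted p = 0.192), the DESeq2 test (0.054), upper-quartile scaling (0.0549) and respiratory chain scaling (0.0645); the cause was not tested. Hadhb was called with no filter (0.0293), by DESeq2 (0.0476) and without soleus female replicate 1 (0.0326), and Etfdh only without that library (0.0443). Cpt2 was called in none (-0.0043 to 0.34). With the mouse as a replicate block 6 of the 9 genes were called, among 620 higher in soleus of 5115 tested, and no call of the 9 changed. A single pair ratio could not pass with these numbers of libraries; with the muscles of a mouse flipped as a block, the smallest possible p is 0.0625. No paired analysis was possible for female against male because they are different mice. Female against male within soleus gave 0 to 3 called genes when libraries were left out, the 3 arising without soleus female replicate 1, when 16.2% of all genes were called and soleus female 2 alone stands for females and is assumed to vary like the other groups. Library sizes set to the citric acid cycle sum, chosen after seeing the data, moved the median of all genes to 0.14. They gave 62.7% of all calls higher in soleus against 49.7%, with 6 of the 9 genes among 653 higher in soleus of 5115 tested. With no filter the median was 0.25. Acadvl and Etfb, with 8 and 16 counts, were too low to test.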
